A study of Homo sapiens with 16 samples.

Results

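The comparison set 4 untreated libraries of monocytic lines against 4 untreated libraries of lymphocyte lines, 8 of the 16 libraries of the series. All 8 were chosen by their labels alone: line, cell type and an untreated state. The monocytic libraries were 2 of THP-1 cells, a line from a monocytic leukaemia that here carried dCas9-KRAB (a nuclease-dead Cas9 fused to a repressor domain), and 2 of wild-type U937 cells, a line from a histiocytic lymphoma. The lymphocyte libraries were 2 of wild-type Jurkat cells, a T cell leukaemia line, and 2 of wild-type BJAB cells, a B cell lymphoma line. The other 8 libraries were the same 4 lines after 4 hours of stimulation: THP-1 with 1 µg/ml and U937 with 200 ng/ml bacterial lipopolysaccharide (LPS), Jurkat with 5 µg/ml anti-CD3 and 100 ng/ml PMA, and BJAB with 10 µg/ml anti-IgM and 4 µg/ml anti-CD40. They serve below only as further libraries of the same lines. Libraries were made by SmartSeq2 with oligo-dT primers, and levels are TPM values, transcripts of a gene per 1000000 transcripts.

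Monocytes and lymphocytes part early in blood formation. Monocytic precursors use transcription factors such as C/EBPα and PU.1 and make granule proteases, lysosomal enzymes and Fc receptors, which serve the uptake and killing of microbes. Lymphocytes instead rearrange genes for 1 antigen receptor per cell and signal from it through ITAM-bearing chains (CD3, CD79) and SRC-family kinases such as LCK and BLK. Each lineage was represented here by only 2 cancer lines, the lymphocyte side by 1 T and 1 B line, so lineage, line and, for THP-1, genotype cannot be told apart in any single contrast. The labels do not say whether the 2 libraries of a line came from separate cultures, so the p-values over libraries measure the spread between these libraries.

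The libraries held 4125240 to 8432224 recovered reads, with 13087 to 14792 genes above 0, and the 2 libraries of a line agreed closely (r of log2 values across genes 0.989 to 0.991). Levels of the labelled cell types were checked on marker lists. The summed TPM of 28 monocytic markers was 10185 to 11848 in the monocytic libraries, 496 in both Jurkat libraries and 184 to 199 in BJAB. A few genes carried much of this sum: in U937, CTSG was at 4716 and 4656 TPM and ELANE at 2600 and 2835. The Jurkat sum was nearly all CTSG, at 485 and 490 TPM. The sum of 24 T cell markers was 6441 to 6792 in Jurkat and 133 to 219 elsewhere. The sum of 22 B cell markers was 7237 to 7784 in BJAB, 190 to 210 in Jurkat and 40.0 to 77.0 in the monocytic lines. Some defining monocytic markers were low: the LPS co-receptor CD14 reached 6.31 TPM in THP-1 but was at 0 in both U937 libraries, and MPO, the azurophil granule peroxidase, did not exceed 2.17 TPM in any library. CD163 was listed at 0 in every library, VCAN did not exceed 0.893 TPM, and FCN1 was at 0 in both THP-1 libraries.

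Of the genes in the files, 13723 reached 1 TPM in at least 2 of the 8 libraries and were tested. The mean of the 2 monocytic lines differed from the mean of the 2 lymphocyte lines, over libraries, in 9248 genes, 67.4% of those tested (limma on log2(TPM + 1), Benjamini-Hochberg adjusted p under 0.05). That contrast can be carried by 1 line. The genes reported here therefore also had all 4 monocytic libraries above, or all 4 below, all 4 lymphocyte libraries: 3499 genes or 25.5% of those tested, of which 1639 were higher in the monocytic lines (11.9%) and 1860 lower (13.6%). The balance of directions depended on the scaling between libraries: with median-of-ratios scaling 1929 were higher and 1522 lower. The median difference on the log2(TPM + 1) scale was 1.5 for the higher genes and -1.04 for the lower genes, against -0.09 over all tested genes. Wide gaps were more frequent on the monocytic side: with a gap of at least 1 on this scale between the nearest libraries of the lineages, 526 genes were higher and 264 lower, and with a gap of at least 4 these numbers were 72 and 18. All 4 lymphocyte libraries were listed at 0 for 189 of the higher genes, and all 4 monocytic libraries for 87 of the lower ones. In 93 of the higher and 98 of the lower genes, a line of the higher lineage had a mean under 1 TPM, so there the side is held by a few reads.

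**Figure D1:**
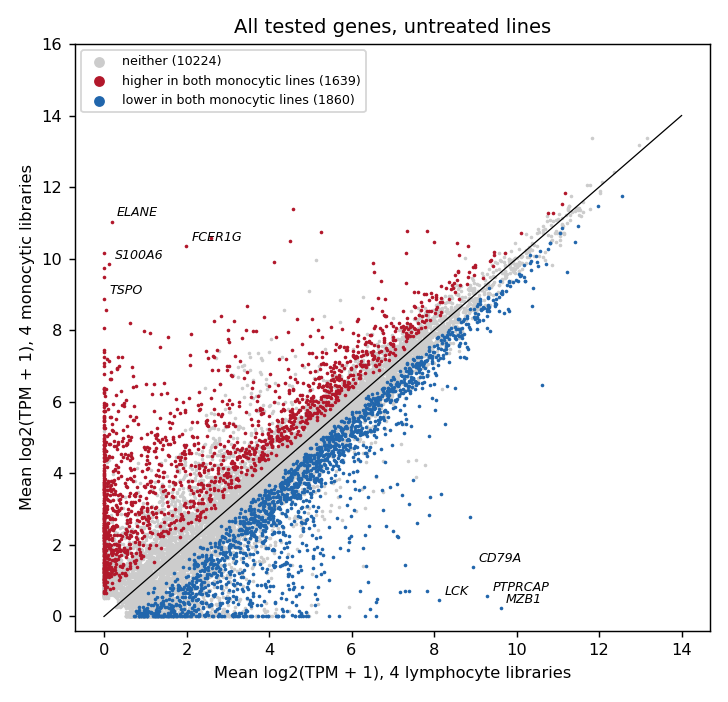
Mean log2(TPM + 1) of the 4 lymphocyte libraries (x) and of the 4 monocytic libraries (y) for the 13723 tested genes; red and blue points are the 1639 and 1860 genes whose lineages did not overlap, grey points are all others, and the line marks equal levels. ELANE, S100A6 and TSPO lie on the left edge, near 0 in lymphocyte lines, and MZB1, PTPRCAP and LCK near 0 in the monocytic lines.

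A stricter view takes the line as the unit, with 2 lines per lineage. Then 9 genes passed (limma on line means, Benjamini-Hochberg adjusted p under 0.05; 0.0656% of those tested), and 1144 had an unadjusted p under 0.05. With any 1 line left out, or with no trend of the spread, limma called 0 (1128 to 1805 with an unadjusted p under 0.05), with a filter at 5 TPM it called 37, and with the line as a random block over libraries 371. The 7 higher genes were ELANE, PRTN3, AZU1, RNASE2 and LYZ, which encode granule or secreted antimicrobial proteins, S100A6, a calcium-binding protein, and CES1, a carboxylesterase. The 2 lower genes were MZB1, an endoplasmic reticulum chaperone of antibody-making B cells, and PTPRCAP, a protein associated with CD45.

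Promoters of genes at both ends of the comparison are shown, 5 windows chosen because they hold letters known from binding motifs of blood cell factors. The sequences are the RefSeq windows of build GRCh38.p14 from 250 bases before to 50 after the gene's start, 5′ to 3′ on the gene's strand. For PRTN3 (chr19:840749-841048, plus strand), AZU1 (chr19:827587-827886, plus) and RNASE2 (chr14:20955237-20955536, plus), all higher in the monocytic lines, capitals mark GAGGAA, letters found in PU.1 sites, and TTGCNNAA, letters found in C/EBP sites. For MZB1 (chr5:139389864-139390163, minus strand) and LCK (chr1:32251015-32251314, plus), lower in the monocytic lines, capitals mark TGTGGT, letters of RUNX sites. Both strands were searched.
PRTN3: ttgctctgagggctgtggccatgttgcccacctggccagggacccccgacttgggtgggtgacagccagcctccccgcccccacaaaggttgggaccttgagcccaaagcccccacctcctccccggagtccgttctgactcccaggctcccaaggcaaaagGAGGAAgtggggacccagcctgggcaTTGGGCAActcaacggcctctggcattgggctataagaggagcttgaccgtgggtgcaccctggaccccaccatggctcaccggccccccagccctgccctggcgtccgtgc
AZU1: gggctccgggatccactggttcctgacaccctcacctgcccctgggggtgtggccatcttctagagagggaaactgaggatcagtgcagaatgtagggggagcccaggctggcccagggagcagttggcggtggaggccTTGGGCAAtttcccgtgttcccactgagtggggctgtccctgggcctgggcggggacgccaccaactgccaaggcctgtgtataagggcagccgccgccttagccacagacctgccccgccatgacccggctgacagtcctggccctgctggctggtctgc
RNASE2: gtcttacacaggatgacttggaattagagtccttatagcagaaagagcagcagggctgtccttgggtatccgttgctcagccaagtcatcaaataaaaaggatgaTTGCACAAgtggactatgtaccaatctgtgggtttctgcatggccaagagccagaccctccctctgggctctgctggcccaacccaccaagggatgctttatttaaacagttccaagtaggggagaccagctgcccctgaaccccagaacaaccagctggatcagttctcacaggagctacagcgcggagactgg
MZB1: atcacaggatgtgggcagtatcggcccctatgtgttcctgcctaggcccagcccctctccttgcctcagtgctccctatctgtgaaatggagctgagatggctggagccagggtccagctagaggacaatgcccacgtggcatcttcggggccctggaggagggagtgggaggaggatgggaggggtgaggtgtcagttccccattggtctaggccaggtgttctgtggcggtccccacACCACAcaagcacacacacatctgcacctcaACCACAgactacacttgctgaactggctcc
LCK: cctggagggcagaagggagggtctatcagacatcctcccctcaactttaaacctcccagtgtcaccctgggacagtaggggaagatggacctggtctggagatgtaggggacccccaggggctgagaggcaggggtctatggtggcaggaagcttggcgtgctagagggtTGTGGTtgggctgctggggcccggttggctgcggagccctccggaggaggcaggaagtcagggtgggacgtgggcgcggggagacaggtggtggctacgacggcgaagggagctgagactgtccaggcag
The table held windows for 8 of the 12 higher and 5 of the 12 lower genes with the widest gaps. GAGGAA stood in 1 of those 8, PRTN3, and in 27.6% of all 27305 promoters of the table. TTGCNNAA stood in 3 of the 8, those shown, in 1 of the 5 lower genes' windows, that of MZB1, where it is not in capitals, and in 10.6% of all promoters. TGTGGT stood in 2 of the 5, at 2 places in the MZB1 window and at 1 in that of LCK, in 1 of the 8 higher genes' windows, that of FCER1G, and in 13.1% of all promoters. Over all shared genes, GAGGAA stood in 28.9% of the windows of higher and 26.2% of lower genes, against 27.5% of tested genes. For TTGCNNAA these shares were 8.24%, 6.49% and 7.23%, and for TGTGGT 10.6%, 9.17% and 9.83%. Only 76.3% of the higher, 80.3% of the lower and 78.4% of the tested genes had a window. The shares therefore describe only the genes with a window and are no check of the shared genes as a whole. These are letter matches and say nothing of binding.

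Granule proteins gave the widest differences. ELANE, neutrophil elastase, stood at 1655 and 1553 TPM in THP-1, 2600 and 2835 in U937 cells, 0 and 0 in Jurkat cells, and 0.68 and 0 in BJAB. The lineages lay 9.85 apart at their nearest libraries, and the difference of means was 10.84 ± 0.16 (SE; adjusted p = 1.99e-08 over libraries and 0.0227 over lines, limma). PRTN3, proteinase 3, stood at 1567 and 1461 TPM in THP-1 and 808 and 890 in U937 cells and was listed at 0 in all 4 lymphocyte libraries, at least 776-fold higher when the lowest monocytic library is set against the level of 3 reads in 1 lymphocyte library, 1.04 TPM. AZU1, azurocidin, stood at 1107 and 1098 TPM in THP-1 and 461 and 474 in U937 cells against 0 in every lymphocyte library, at least 407-fold higher on the same reckoning. These 3 genes and CFD (complement factor D; 645 and 622 TPM in THP-1, 105 and 105 in U937 cells, 39.6 and 47 in Jurkat cells, 0 and 1.1 in BJAB) are neighbours on chromosome 19 in RefSeq, and all 4 were higher in the monocytic lines.

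RNASE2, the eosinophil-derived neurotoxin ribonuclease, was at 1222 and 1230 TPM in THP-1 and 621 and 567 in U937 cells and listed at 0 in the lymphocyte libraries, at least 400-fold higher. Its neighbour on chromosome 14, RNASE3 (45.2 and 56.2 TPM in THP-1, 216 and 257 in U937 cells), and the related ECRP (119 to 254 TPM over the 4 monocytic libraries) were listed at 0 there too. The files are of uniquely aligned reads, so the split of reads among these close copies is uncertain. LYZ, lysozyme, stood at 321 and 258 TPM in THP-1, 289 and 314 in U937 cells, 0.734 and 0 in Jurkat cells and 0 and 2.28 in BJAB, a difference of 7.58 ± 0.37 (adjusted p = 2.49e-06 over libraries and 0.0383 over lines, limma). Its levels in the 2 monocytic lines overlapped, while every lymphocyte library was under 3 TPM.

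CTSG, cathepsin G, did not follow this all-or-none pattern. It was at 1590 and 1424 TPM in THP-1 and 4716 and 4656 in U937 cells, but also at 485 and 490 in Jurkat cells, against 0 and 0.34 in BJAB. The lineages still did not overlap, by a gap of 1.54. SRGN, the proteoglycan core of granules, was present in all lines at 1580 to 1909 TPM in the monocytic libraries and 23.9 to 54.7 in the lymphocyte ones. Of the 16 tested azurophil and secreted granule genes, 13 were higher and 0 lower, with a median difference of 6.79 (all tested genes: 11.9% higher, median -0.09). The 3 that overlapped were MPO, PRSS57 and CST7, and CST7 (cystatin F) was at 2112 and 2241 TPM in U937 against 9.02 and 9.43 in THP-1 and 40.1 and 33.2 in Jurkat cells.

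**Figure D2:**
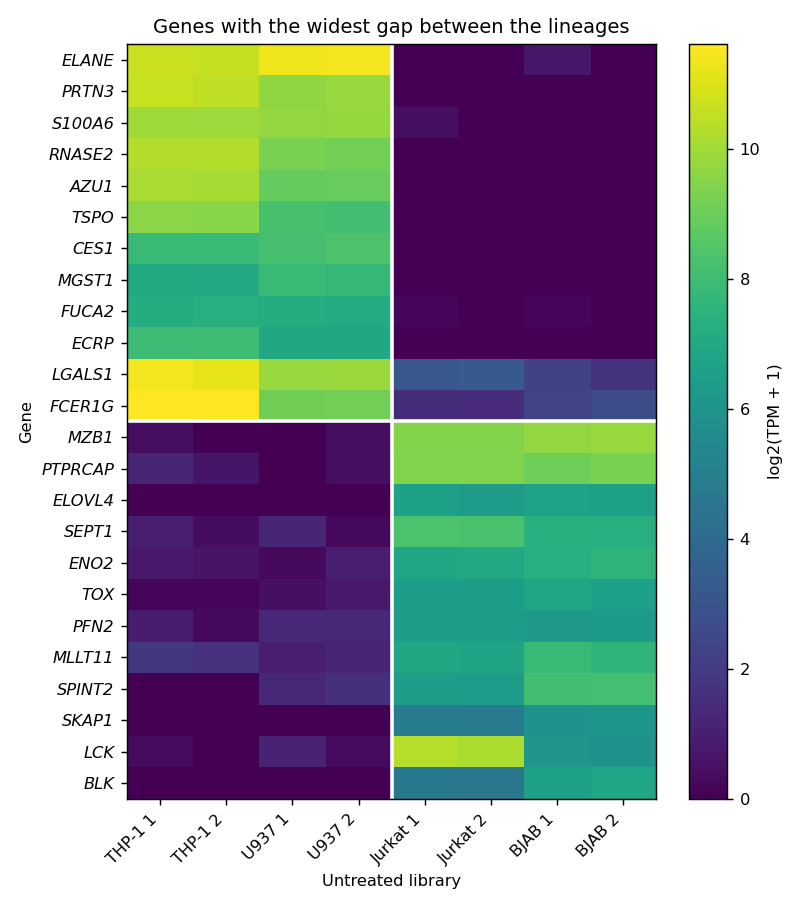
Level as log2(TPM + 1), by colour, of the 12 higher and 12 lower genes with the widest gap between the lineages (rows) in the 8 untreated libraries (columns); white lines part the lineages and the directions. In the upper rows only LGALS1 and FCER1G exceed 1 TPM in every lymphocyte library, and in the lower rows LCK is far higher in Jurkat than in BJAB.

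Several other genes with wide gaps encode enzymes or binding proteins outside the granules. S100A6 stood at 1004 and 972 TPM in THP-1 and 845 and 870 in U937 cells, at 0.408 in 1 Jurkat library and at 0 in the other 3 lymphocyte libraries. Its difference was 9.72 ± 0.11 (adjusted p = 8.56e-09 over libraries and 0.0227 over lines, limma). TSPO, a cholesterol-binding protein of the outer mitochondrial membrane, stood at 781 and 739 TPM in THP-1 and 303 and 273 in U937 cells and was listed at 0 in all lymphocyte libraries, at least 307-fold higher. CES1, at 231 and 233 TPM in THP-1 and 289 and 326 in U937 cells, and the microsomal glutathione transferase MGST1, at 131 and 128 in THP-1 and 223 and 211 in U937 cells, were listed at 0 in the lymphocyte lines as well. FUCA2, a fucosidase, was at 140 to 152 TPM in the monocytic libraries and at most 0.134 in the others. LGALS1, galectin-1, was high in both monocytic lines (2697 and 2348 TPM in THP-1, 891 and 940 in U937 cells) and low but present in the lymphocyte lines (2.25 to 8.71).

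Of 21 tested S100, annexin and galectin genes, 13 were higher, 1 was lower and 7 overlapped, among them the annexins ANXA1, ANXA3, ANXA6, ANXA7 and ANXA11, and the median difference was 2.97. S100A11 was at 1411 to 1513 TPM in all 4 monocytic libraries, 153 and 155 in BJAB and 2.34 in both Jurkat libraries. S100A4 was at 1134 to 2843 TPM in the monocytic libraries but also at 778 and 867 in BJAB, against 27.6 and 33.9 in Jurkat cells. The alarmins S100A8 and S100A9 were mostly a THP-1 feature: S100A9 stood at 888 and 786 TPM in THP-1 against 20.4 and 34.4 in U937. The lower gene was S100Z, at 3.03 to 34 TPM in the lymphocyte libraries and listed at 0 in the monocytic ones.

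Fc receptors, their ITAM-bearing signalling chains and paired immune receptors formed the list with the largest share on 1 side: 20 of 24 tested were higher, none was lower, and the median difference was 3.73. FCER1G, the common Fc receptor gamma chain, stood at 3123 and 3045 TPM in THP-1, 543 and 563 in U937 cells, 1.88 and 1.76 in Jurkat cells and 4.05 and 5.32 in BJAB, a difference of 8.36 ± 0.08 (adjusted p = 4.91e-09, limma). TYROBP (DAP12), the other such adaptor, was at 457 and 454 TPM in THP-1, 66 and 79.8 in U937 cells, and at most 8.68 in a lymphocyte library. TREM2, a lipid-sensing receptor that pairs with TYROBP, was at 473 and 433 TPM in THP-1 but at only 4.56 and 8.83 in U937, with 0 in all lymphocyte libraries. CD33, a sialic acid-binding receptor, was at 127 to 165 TPM in the monocytic libraries, 84.3 and 79.8 in BJAB and at most 0.346 in Jurkat, so its gap of 0.59 rests on the B cell line. The reads of FCGR1A and FCGR1B, near-identical copies, cannot be told apart with confidence.

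Receptors for growth factors and inflammatory cytokines were higher in 14 of 18 tested cases and lower in 0, with a median of 2.04. CSF2RA, a chain of the GM-CSF receptor (14.7 to 18.1 TPM), and CSF3R, the G-CSF receptor (37.8 to 74.7), were listed at 0 in all lymphocyte libraries. CSF1R, the M-CSF receptor, was at 57.8 and 54.8 TPM in THP-1 but only 2.48 and 2.06 in U937. IL6R was at 98.4 and 94.1 TPM in THP-1, 63.8 and 52.5 in U937 cells, 6.93 and 6.6 in BJAB and under 0.1 in Jurkat. IFNGR1, a chain of the interferon gamma receptor, marks the limit of the rule: its lowest monocytic library (81.6 TPM) lay just above its highest lymphocyte library (81.5), and NSMCE2 was the other such gene. TCTEX1D1 and GBP1, taken as the nearest genes outside it, had libraries of both lineages at 0. They were picked from ties, since TAL1 for example had the same separation of 0, and were not close calls like IFNGR1.

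Among 17 tested myeloid transcription factors, 9 were higher and 0 lower, with a median of 1.47. CEBPA, encoding C/EBPα, stood at 66.6 and 69.7 TPM in THP-1, 60.3 and 64.3 in U937 cells, 1.38 and 0.792 in Jurkat cells and 0 and 0 in BJAB, a difference of 5.52 ± 0.12 (adjusted p = 9.01e-08, limma). ZEB2, a zinc finger repressor, was at 41.6 to 50.3 TPM in the monocytic libraries and listed at 0 in the lymphocyte ones, at least 465-fold higher. NFE2, a bZIP factor, was at 19.6 to 40.6 TPM against at most 1.02. SPI1, encoding PU.1, did not separate the lineages: it was at 40 and 33.9 TPM in THP-1, 19.7 and 20.7 in U937 cells, and 35 and 23.9 in BJAB, with only Jurkat listed at 0. IRF8 also overlapped through BJAB, with 200 and 203 TPM there against 88.9 and 98.1 in U937. In THP-1, however, it was far higher, at 1223 and 1141 TPM, and in Jurkat it was at 7.85 and 6.39.

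Of 20 tested pattern recognition and inflammasome genes, 9 were higher and 1 was lower, with a median of 1.41. The inflammasome adaptor PYCARD was at 340 and 357 TPM in THP-1, 175 and 201 in U937 cells, 67.7 and 76.8 in BJAB and at most 0.898 in Jurkat. CASP1, the inflammasome protease, was at 95.6 and 97.1 TPM in THP-1 and 16.5 and 25.3 in U937 cells against at most 0.511 in a lymphocyte library. CARD9, an adaptor of C-type lectin receptors, was at 175 and 185 TPM in THP-1, 36 and 32 in U937 cells and under 0.7 in every lymphocyte library. The lower gene was LY96 (MD-2), which binds LPS together with TLR4: it stood at 2.92 and 0.419 TPM in THP-1, 14.8 and 10.7 in U937 cells, 27.2 and 44 in Jurkat cells and 84.5 and 96.6 in BJAB, a difference of -3.33 ± 0.33 (adjusted p = 8.75e-05, limma). TLR4 itself overlapped, with 8.5 and 9.28 TPM in THP-1, 30.6 and 26.9 in U937 cells and 10.9 and 12 in BJAB, and 0 in Jurkat.

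Lysosomal genes were higher in 18 of 35 tested cases and lower in 1, with a median of 1.25, by smaller steps than the granule genes. CTSD, cathepsin D, was at 258 and 281 TPM in THP-1, 1727 and 1537 in U937 cells, 173 and 183 in Jurkat cells and 54.7 and 65.6 in BJAB. CD63, a tetraspanin of late endosomes, was at 281 to 419 TPM in the monocytic libraries and 61.3 to 189 in the lymphocyte ones. CD68, often used as a macrophage marker, was at 71.4 to 227 TPM against 2.06 to 19. PSAP, the precursor of the saposins that assist sphingolipid breakdown, went the other way: 503 and 485 TPM in THP-1, 313 and 366 in U937 cells, 1062 and 960 in Jurkat cells and 1833 and 1682 in BJAB, a difference of -1.70 ± 0.07 (adjusted p = 1.09e-06, limma).

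NCF4, a cytosolic subunit of the phagocyte NADPH oxidase, was higher, at 209 to 238 TPM in the monocytic libraries, 91.1 and 82.8 in BJAB and at most 0.423 in Jurkat. CYBB, the catalytic subunit, was higher in BJAB (44.7 and 53.2 TPM) than in THP-1 (24.4 and 21.1) or U937 (9.15 and 12.5) and near 0 in Jurkat, so it overlapped.

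Lipid mediator, adhesion and HOXA genes had medians of 2.03, 1.61 and 2.38. Of 13 tested eicosanoid genes 5 were higher, among them PLA2G4A, cytosolic phospholipase A2 (21.7 to 52.6 TPM against at most 1.19), and 1 was lower, LTA4H. Of 19 adhesion molecules 6 were higher and 0 lower. The integrin chain ITGB2 (CD18) was at 303 to 369 TPM against 97.6 to 121, whereas its partner ITGAM overlapped between the lineages (0.76 to 8.97 TPM against 0 to 1.66). HOXA9, HOXA10, HOXA11 and HOXA13 were higher among 10 tested HOXA genes and cofactors, and HOXA6 was lower. HOXA9 was at 6.57 to 14 TPM in the monocytic libraries and listed at 0 in the lymphocyte ones, at least 13-fold higher. In the iron list of 12 tested genes 8.33% were higher and 16.7% lower, close to the shares over all tested genes (11.9% and 13.6%). STEAP3 was higher, and the ferritin heavy chain FTH1 (679 to 1025 TPM against 1962 to 2911) and the transferrin receptor TFRC (136 to 193 against 275 to 350) were lower.

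**Figure D3:**
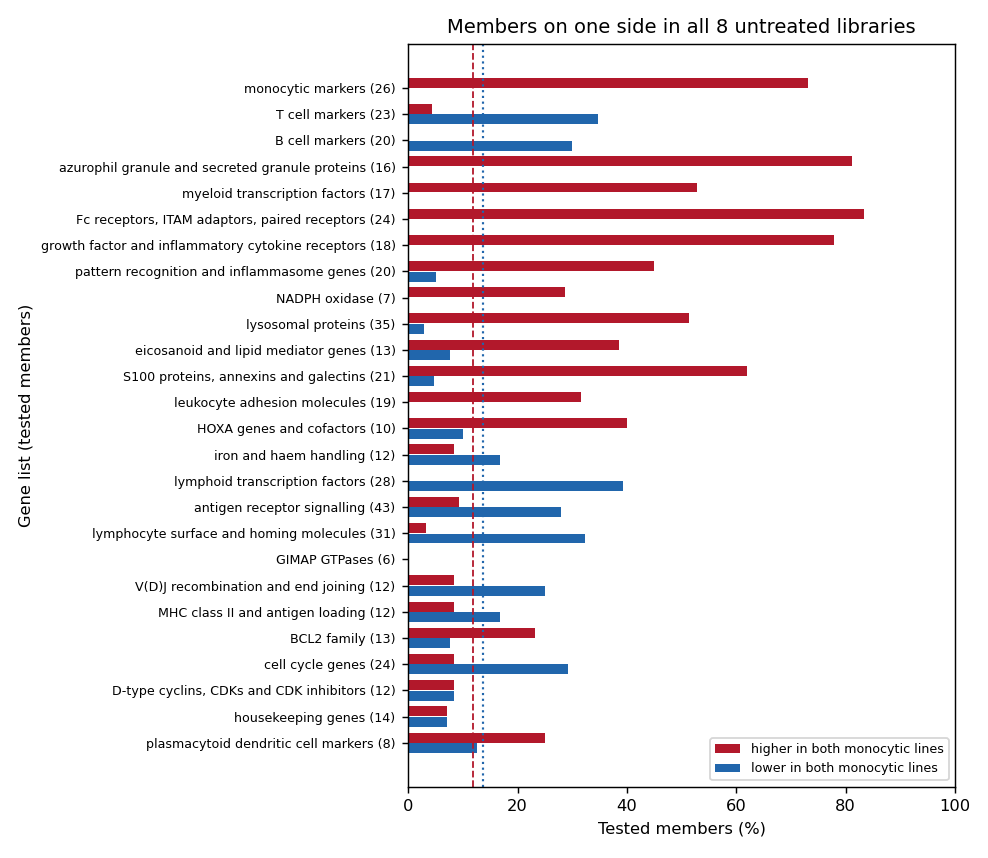
Share of each list's tested members (x, percent) that were higher (red) or lower (blue) in all 4 monocytic libraries than in all 4 lymphocyte libraries, with the number of tested members beside each list of 6 or more; the dashed and dotted lines are the shares over all tested genes, 11.9% and 13.6%. Red bars pass 70% for Fc receptor, granule, cytokine receptor and monocytic marker lists, and no blue bar reaches 40%.

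In the other direction, the genes named for the widest gaps had to reach a mean of 10 TPM in both lymphocyte lines. Their presence in both the T and the B cell line was thus set by the choice. MZB1 stood at 0.362 and 0 TPM in THP-1, 0 and 0.363 in U937 cells, 692 and 700 in Jurkat cells and 858 and 896 in BJAB, a difference of -9.39 ± 0.14 (adjusted p = 2.04e-08 over libraries and 0.0227 over lines, limma). Its neighbours on chromosome 5, SLC23A1 and PROB1, were lower in the monocytic lines too. PTPRCAP was at 1.32 and 0.569 TPM in THP-1, 0 and 0.331 in U937 cells, 677 and 673 in Jurkat cells and 533 and 622 in BJAB (difference -8.72 ± 0.15, adjusted p = 3.87e-08 over libraries and 0.0338 over lines, limma). The phosphatase it accompanies, PTPRC (CD45), was present in every line but lower in the monocytic ones, at 34.4 to 44.1 TPM against 116 to 237.

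Several enzymes, cytoskeletal proteins and regulators were also among the genes chosen in this way. ELOVL4, which elongates very long chain fatty acids, was at 98.2 and 81.6 TPM in Jurkat and 107 and 95 in BJAB and listed at 0 in the monocytic libraries, so that it was at least 156-fold lower there. TOX, an HMG-box factor of T cell development, was at 89.3 and 88.3 TPM in Jurkat and 113 and 91.9 in BJAB against at most 0.727. SEPT1, a septin, was at 318 and 313 TPM in Jurkat and 164 and 159 in BJAB against at most 1.34 in a monocytic library. ENO2, MLLT11, PFN2 and SPINT2 complete this group, with differences of -6.50, -5.85, -5.44 and -6.57.

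Proximal antigen receptor genes showed which T and B cell genes the lines shared. LCK, the T cell SRC-family kinase, was at 1288 and 1161 TPM in Jurkat and still at 64.9 and 58.9 in BJAB, against 0.268 and 0 in THP-1 and 1.2 and 0.269 in U937 cells, a difference of -7.66 ± 0.18 (adjusted p = 1.23e-07, limma). CD247, the CD3 zeta chain, was at 251 and 277 TPM in Jurkat and 26.2 and 29.7 in BJAB against at most 0.357. In the reverse sense, CD79A, the B cell receptor alpha chain, was at 1514 and 1729 TPM in BJAB and at 135 and 161 in Jurkat cells, against 0 to 5.97 in the monocytic libraries (difference -7.57 ± 0.26, adjusted p = 4.92e-07, limma). BLK, a B cell SRC-family kinase, was at 100 and 115 TPM in BJAB and 24.6 and 23 in Jurkat cells, and the adaptor SKAP1 was at 61.4 and 68 in BJAB and 29.3 and 26.7 in Jurkat cells. Both were listed at 0 in all 4 monocytic libraries. SIT1, an inhibitory adaptor, was at 275 and 267 TPM in Jurkat and 106 and 97.1 in BJAB against at most 3.75.

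**Figure D4:**
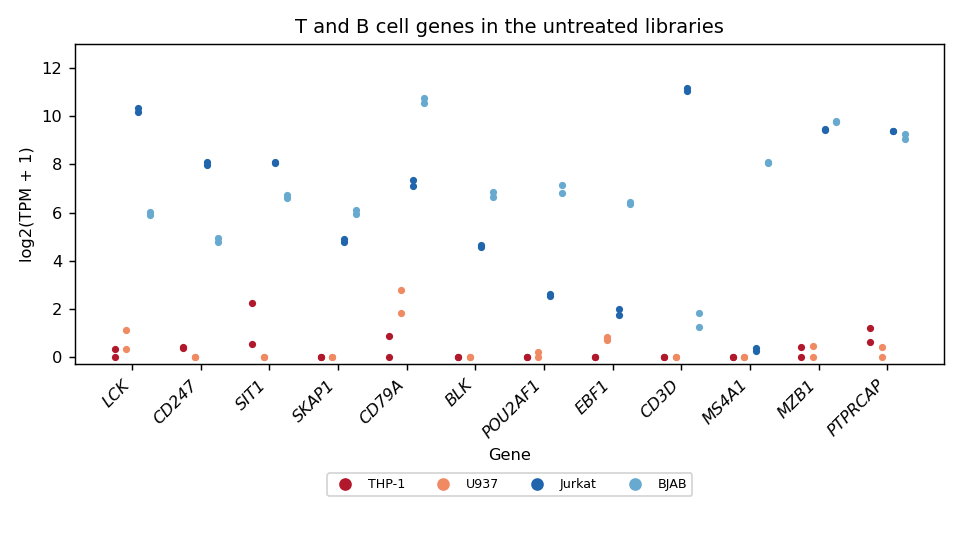
Level as log2(TPM + 1) of 12 T and B cell genes in each untreated library, 2 points per line. LCK, CD247, SIT1, SKAP1, CD79A, BLK, MZB1 and PTPRCAP are well above the monocytic lines in both Jurkat and BJAB, while CD3D and MS4A1 pass the rule only through low levels in the other lymphocyte line.

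Of 43 tested antigen receptor signalling genes, 12 were lower and 4 higher in the monocytic lines, with a median of -0.93. The lower genes included the GTPase RHOH (36.8 to 161 TPM in the lymphocyte libraries, 0.944 to 10.8 in the monocytic ones) and the kinase FYN (16.8 to 28.2 against 0.0773 to 1.93). The 4 higher genes were PRKCB, RASGRP2, INPP5D and CORO1A. CORO1A passed by a gap of only 0.04 (904 to 1104 TPM against 496 to 882), and its lineages overlapped after stimulation. PRKCB passed narrowly too, with 18.3 TPM in its lowest monocytic library against 16.5 in its highest lymphocyte one. Among T cell markers 8 of 23 tested were lower, and CD4 was higher, at 111 to 128 TPM in the monocytic libraries, 18.3 and 20.4 in Jurkat cells and 2.18 and 1.91 in BJAB. Part of these calls rests on traces: CD3D was at 2333 and 2098 TPM in Jurkat but only 1.38 and 2.54 in BJAB, while 3 reads in a monocytic library came to as much as 2.16 TPM. The other 14 T cell markers, among them CD2, CD5, CD7, ZAP70 and BCL11B, overlapped, and these 5 were high in Jurkat only. Of 20 tested B cell markers 6 were lower and 14 overlapped, among them CD22, CD79B and PAX5, which were highest in BJAB. By the library contrast alone 18 were lower and 2 higher. These 2, which overlapped, were FCER2, highest in U937 (43.1 and 45.4 TPM), and BANK1, highest in THP-1 (7.5 and 7.9 TPM). MS4A1 (CD20), at 270 and 267 TPM in BJAB, passed through 0.31 and 0.193 in Jurkat cells.

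Among 28 tested lymphoid transcription factors 11 were lower and 0 higher, with a median of -2.21. IKZF1 (Ikaros) differed by a small step, 15.8 to 36.7 TPM in the monocytic libraries against 44 to 50.4 in the lymphocyte ones. ETS1 was at 3.57 to 7.21 TPM against 23.1 to 49.1. ID3, an inhibitor of E proteins, was at 9.19 and 11.7 TPM in THP-1, 0.862 and 0.97 in U937 cells, 65.8 and 80.7 in Jurkat cells and 264 and 258 in BJAB. EBF1 and POU2AF1, factors of the B lineage, were highest in BJAB (81.8 and 87.2, and 113 and 139 TPM) with low levels in Jurkat (2.41 and 2.95, and 5.23 and 4.81). The T cell factors LEF1, TCF7 and GATA3 were high in Jurkat only and overlapped.

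Of 31 tested lymphocyte surface and homing genes 10 were lower and 1, GPR183, was higher, with a median of -1.28. CD53, a tetraspanin, was at 45 to 152 TPM in the monocytic libraries and 241 to 510 in the lymphocyte ones. CD52 was at 0.595 to 10.7 against 41.3 to 357. CD1C, a lipid-presenting molecule, was at 107 and 95.8 TPM in Jurkat and 3.03 and 6.18 in BJAB against at most 0.995. Of 12 V(D)J recombination and end joining genes 3 were lower, against 13.6% of all tested genes, 1 was higher, against 11.9%, and 8 overlapped. Whether so few lower genes depart from that share was not tested. The surrogate light chain gene VPREB1 was among the lower ones through low levels (15 and 24 TPM in Jurkat, 2.1 and 5.8 in BJAB, while 3 reads in a monocytic library came to as much as 2.47), and its lineages overlapped after stimulation. IGLL1 was lower too, but it was at 74.2 and 91.1 TPM in U937 against 0 and 0.573 in THP-1, with 182 to 301 in the lymphocyte libraries. IGLL1 resembles immunoglobulin light chain genes, so its counts are uncertain.

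Housekeeping, cell cycle and BCL2 family genes had medians near 0. Of 14 housekeeping genes, GUSB was higher and GAPDH lower (2875 to 4188 TPM against 5808 to 6449), with a median of -0.03. Of 24 cell cycle genes 7 were lower (29.2%, against 13.6% of all tested genes) and 2 higher, with a median of -0.07: RRM2 was at 243 to 465 TPM against 543 to 718. Of 12 tested MHC class II and antigen loading genes 2 were lower (16.7%), HLA-DPA1 and RFXAP, and 1 was higher (8.33%), HLA-DRB1. These shares were again close to those over all tested genes. CD74, the invariant chain, stood at 222 and 231 TPM in THP-1, 64.8 and 82.8 in U937 cells, 0.993 and 1.03 in Jurkat cells and 1717 and 1664 in BJAB. HLA-DRA was at only 17.2 and 16.5 TPM in BJAB. As the files are of uniquely aligned reads, levels of the HLA genes are uncertain, and a loss of their reads was not tested. The median of 13 BCL2 family genes was 0.15. Of these, 3 were higher (23.1%, against 11.9% of all tested genes) and 1 was lower (7.69%, against 13.6%). BAK1 was higher (161 to 259 against 73.9 to 98.3 TPM), but its lineages overlapped after stimulation (16.8 to 238 against 4.32 to 82.3 TPM). None of 6 tested GIMAP genes was shared. Of 18 erythroid and megakaryocyte markers 4 were tested, of 12 mast cell and eosinophil markers 5 and of 14 non-blood markers 2, and none of these was shared. Some were high in 1 line: the epithelial adhesion molecule EPCAM was at 438 and 432 TPM in BJAB, the tryptase TPSAB1 at 330 and 340 in U937, and the erythroid and T cell leukaemia factor TAL1 at 60.1 and 55 in Jurkat. Of 8 tested plasmacytoid dendritic cell markers 2 were higher and 1 was lower, JCHAIN, at 3213 and 2876 TPM in BJAB but 3.56 and 1.23 in Jurkat. SERPINF1 of that list was at 218 and 202 TPM in THP-1 and overlapped. Of 5 tested natural killer markers NKG7 and NCAM1 were higher, PRF1 was lower and the other 2 overlapped. NKG7, a cytotoxic granule gene, was at 832 and 828 TPM in U937, 55.5 and 54 in THP-1 and 1.14 to 17.9 in the lymphocyte libraries.

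PPIF, the mitochondrial cyclophilin D, was at 442 and 486 TPM in THP-1, 599 and 568 in U937 cells, 197 and 201 in Jurkat cells and 198 and 279 in BJAB. Every monocytic library lay above every lymphocyte one, by a gap of 0.66, and the difference was 1.26 ± 0.11 (adjusted p = 4.18e-05 over libraries and 0.348 over lines, limma). After stimulation the lineages overlapped for this gene, at 231 to 567 TPM in the monocytic and 185 to 339 in the lymphocyte libraries.

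The stimulated libraries, which were not used to choose the genes, mostly kept the wide differences. Of the 526 higher genes with a gap of at least 1, 440 (83.7%) also had all 4 stimulated monocytic libraries above all 4 stimulated lymphocyte ones, as had 211 of the 264 lower genes (79.9%) in reverse. Over all shared genes the side was kept for 759 of 1639 higher genes (46.3%) and 793 of 1860 lower genes (42.6%), and it reversed for none; 7.28% and 8.61% of all tested genes lay on those sides there. In U937 and in BJAB, the first stimulated library stood apart from its partner (r = 0.941 and 0.937 within those pairs, 0.984 to 0.988 in THP-1 and Jurkat). Without these 2 libraries, the side was kept for 1180 higher (72.0%) and 1284 lower genes (69.0%) and reversed for 2 in each direction. With fewer libraries to separate, the shares of all tested genes on those sides rose too, to 13.2% and 15.5%. ELANE stayed at 1267 to 3061 TPM against at most 0.509, and MZB1 at 0 to 1.64 against 237 to 499. BLK kept its side by less, with 0.686 TPM in its lowest stimulated lymphocyte library.

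**Figure D5:**
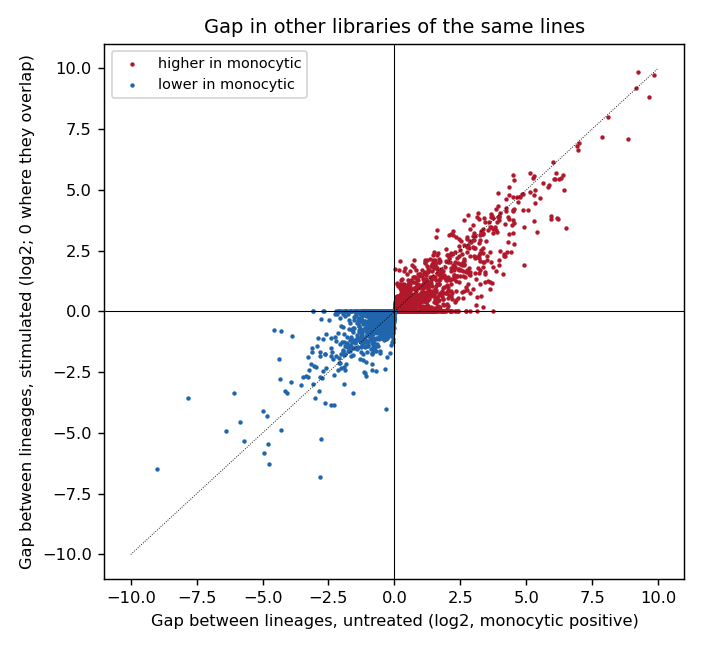
Gap between the nearest libraries of the lineages on log2(TPM + 1), untreated (x) against stimulated (y), for the 3499 shared genes; red points were higher and blue points lower in the untreated monocytic libraries, and points at 0 on the y axis had overlapping lineages after stimulation. No point lies in the quadrants of reversed sides.

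Shared genes were often neighbours in the genome. Among higher genes with a position in RefSeq, 376 of 1561 (24.1%) had a directly adjacent higher gene, against 2001 of 12487 tested genes (16%). Among lower genes, 508 of 1707 (29.8%) had an adjacent lower gene, against 2275 (18.2%). These shares are descriptions, and overlapping genes may share reads.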

How the data were processed

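RNA was measured in 16 SmartSeq2 libraries, 2 per line and state, of which the 8 untreated ones were compared. The authors deposited 1 file per library of TPM values from uniquely aligned reads, per the labels. Reads were aligned with TopHat2 to build hg19, per the submitters' processing notes, and the sources used here name no counting program or annotation. Each library summed to 1000000 TPM. Values are whole multiples of the TPM of 1 read, and whole reads were recovered, at a tolerance of 0.001, for 17860 of 19092 detected genes (93.5%); the other 1232 were above 0 in 1 library only. They served for depth, for the level of 3 reads, and for a voom alternative. The level of 3 reads allows for counting only, and PCR reads are not independent molecules. The ± values are limma standard errors, which come from the spread between the 2 libraries of a line.

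Genes with at least 1 TPM in at least 2 of the 8 libraries were fitted with limma 3.58.1 in R 4.3.3 on log2(TPM + 1), a pseudocount of 1, with 1 coefficient per line and the spread allowed to depend on the level (4 residual and 3.04 prior degrees of freedom). The contrast was the mean of both monocytic lines minus the mean of both lymphocyte lines, two-sided, Benjamini-Hochberg adjusted over all tested genes at 0.05. A shared gene also had all libraries of the lineages on separate sides. A second fit took the 4 line means (2 residual and 2.59 prior degrees of freedom). This scale understates the difference of genes with low levels, and each level averages over the cells of a line, so fewer cells with a transcript and less of it per cell cannot be told apart. Scripts were tested on simulated data.

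Named genes were, per direction, the 12 shared genes with the widest gap between the nearest libraries and a mean of at least 10 TPM in both lines of the higher lineage, small RNA genes left out. Added to these were up to 4 shared members of each of the 30 lists, cell type markers, PPIF, and the genes nearest to a gap of 0. Some genes are not reported here. Further list members were named after their values were seen. The members, lists and motifs were chosen with earlier results of these data known. Neighbours and promoters came from RefSeq (13571 of 13723 tested genes matched, 10754 with a promoter).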

Additional observations from a re-analysis of the deposited data

Results flagged for a closer look

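TOX was the 1 gene of 111 tested that was flagged for a highest or lowest library standing apart within a lineage. Lone libraries near 0 in the lower lineage are not among the flags. ELANE, for example, was at 0.68 TPM in 1 BJAB library and at 0 in every other lymphocyte library. The second BJAB library of TOX was close to Jurkat, and the first BJAB library, at 113 TPM, lay away from the other 3 lymphocyte libraries (88.3 to 91.9 TPM). On the log2(TPM + 1) scale that gap was 0.838 of the range of the 4 libraries, above Dixon's 95% critical value. That limit is set to flag about 1 in 20 groups of 4 values from a single population by chance, whereas the 4 libraries here are pairs from 2 lines, so its rate need not hold.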

How the results depend on the processing

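Of the 111 named shared genes, 99 kept their direction and their side of the threshold under all 22 alternatives. Where an alternative only left out a library or a line, the direction was fixed by the rule for shared genes. The other 12 no longer passed with all 16 libraries in the fit, among them BAK1, CORO1A, IFNGR1, NSMCE2, RRM2 and TFRC, and of these IFNGR1 also not without U937 and NSMCE2 not without BJAB. The count of shared genes, 3499, was 3681 to 3905 with 1 library left out, 3011 to 3728 over the alternatives of pseudocount, filter, scaling, trend and voom, 2755 with the spread estimated from all 16 libraries, and 3308 when both lines of the higher lineage had to reach a mean of 1 TPM, an alternative chosen after seeing the data. It was 2111 with a minimum difference of 1, 2253 with all 4 line pairs past the threshold and 790 with a gap of at least 1. With fewer lines to separate it was 5926 without THP-1, 6141 without U937, 6572 without Jurkat and 6754 without BJAB. Median-of-ratios scaling moved the median of all genes from -0.09 to 0.01 and the shared genes to 1929 higher and 1522 lower.

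The library contrast called 3820 genes with a minimum difference of 1, 5968 with all 16 libraries and 8229 to 8746 with 1 library left out. The contrast over lines called 5 genes with a pseudocount of 5, 3 with no filter, 37 with a filter at 5 TPM, 371 with the line as a random block, and 8 to 9 with 1 library left out. Without the trend limma called 0 (1128 with an unadjusted p under 0.05), and without any 1 line it called 0 (1205 to 1805). Genes that kept their side after stimulation numbered 2464 without stimulated library 1 of U937 and of BJAB, against 1552, with fewer libraries to separate. The causes were not tested.

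When a line is left out, the difference of a shared gene cannot change sign, since its libraries lie on separate sides. Changes of sign were therefore possible only for genes that were not shared. Without Jurkat they were 0.22 for BCL11B, 0.38 for CD2, 0.06 for CD5, 0.08 for CD7, 3.24 for LAT and -0.08 for SPI1. Without BJAB they were 1.85 for BLNK, 0.45 for CD79B, -2.13 for GIMAP2 and 0.43 for PAX5. That of CD14 was -0.33 without THP-1, and that of TPSB2 was -0.08 without U937.

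With the replicate number as a block, 9115 genes were called and 3490 were shared. Same-numbered libraries did not deviate together across genes (correlations between lines -0.043 to 0.021). This check cannot tell whether same-numbered libraries were handled together.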

Other observations

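Further shared genes, picked here after their values were seen, include enzymes of redox and xenobiotic metabolism beside CES1 and MGST1. MGST2, a related glutathione transferase, averaged 164 TPM in THP-1 and 138 in U937, 0 in Jurkat and 0.62 in BJAB. CBR1, a carbonyl reductase, averaged 81.5 and 79.7 TPM in the monocytic lines and was listed at 0 in both lymphocyte lines, as was the surface aminopeptidase ANPEP (CD13; 71 and 79.1 TPM). Some close relatives lay on opposite sides: the tubulin TUBB6 averaged 267 TPM in THP-1 and 66.7 in U937 and was listed at 0 in the lymphocyte lines, whereas TUBB4A averaged 27.5 TPM in Jurkat and 24 in BJAB and under 0.2 in the monocytic lines.

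ADA, the adenosine deaminase whose loss causes immunodeficiency, averaged 2556 TPM in Jurkat and 953 in BJAB against 34.6 in THP-1 and 220 in U937. CHI3L1, a secreted chitinase-like protein, averaged 4044 TPM in THP-1 but 34.1 in U937, against at most 0.0758 in a lymphocyte line. OCIAD2 averaged 502 and 440 TPM in Jurkat and BJAB, 45.9 in THP-1 and 0 in U937.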
